A study of Mus musculus with 15 samples.

Results

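Where heat shock factor 1 (HSF1) sits relative to 33 nuclear genes for subunits of the respiratory chain and the ATP synthase was read from ChIP-seq peak lists of mouse brown adipose tissue. HSF1 is the transcription factor that drives chaperone genes when proteins misfold. The 33 genes comprise 13 complex I genes, 4 complex II genes, 5 genes of complex III and cytochrome c, 7 complex IV genes and 4 ATP synthase genes. All 33 were found among 21887 protein-coding genes of GRCm38, which leaves 21854 other genes as the background. A gene counts as bound in a library when a peak summit lies within 5000 bp of either end of the gene, and as bound in a group when this holds in both libraries of the group. Because the rule uses both ends, a bound gene need not have a peak at its promoter, and a peak can be nearer to a neighbour.

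Of HSF1 ChIP there are 10 libraries, 2 for each of 5 groups, beside 5 inputs that were not analysed here. Wild type (WT) mice were taken at room temperature, after 40 min of cold stress (the first WT pair), and after 4 h of cold stress. A second pair of WT libraries carries the same 40 min label, with replicate numbers that repeat those of the first pair with a suffix. The last group is labelled TXNIP KO, a knockout of the thioredoxin-interacting protein, at 40 min of cold stress. All 10 came from brown adipose tissue fixed with 2 mM DSG and 0.8% formaldehyde, and precipitated with the same antibody. Strain, age, sex and the knockout allele were not given in the sources used here, nor whether libraries come from separate animals. Brown fat also holds vessel, nerve and immune cells, and a peak list of tissue cannot tell in which cells a site is bound. The lists carry no expression, so the tissue label was not checked against marker genes, and the loss of TXNIP was not checked either.

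Oxidative phosphorylation passes electrons from NADH (complex I) and succinate (complex II) through complex III and cytochrome c to oxygen at complex IV. The proton gradient built on the way drives the ATP synthase. In brown fat in the cold, the uncoupling protein lets protons return without making ATP, so that the chain runs fast and yields heat. The promoters of nuclear subunit genes are known for sites of the factors NRF1, GABP (of the ETS family) and YY1, while HSF1 is known to bind arrays of inverted GAA units, called heat shock elements.

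Promoter sequences were compared first, since the words that these factors read can be looked for independently of the peaks. The 250 bases before the annotated start are shown, 5′ to 3′, for 5 of the subunit genes with a summit within 1000 bp of that start in both replicates of a group and a motif there, and for Hspe1, the mitochondrial co-chaperonin gene that carries the strongest HSF1 peak of most lists (RefSeq, GRCm38.p6). Ndufa5, Ndufs3, Sdha and Cox5a also met this rule and are not printed. Of these, Sdha and Cox5a hold an inverted pair of GAA units. Since a motif was part of the rule, every printed subunit run holds one. Ndufa4 and Cox7a2 had summits within 1000 bp of the start in both libraries of the second WT pair, but none of the searched motifs. Capitals mark the motif letters found. They show a heat shock element in Hspe1 (chr1:55087898-55088147, + strand). Inverted GAA units are marked in Atp5c1 (chr2:10080511-10080760, − strand) and Atp5b (chr10:128083057-128083306, + strand), and an NRF1 word in Sdhb (chr4:140961021-140961270, + strand). Cycs (chr6:50566570-50566819, − strand) has a cAMP response element and then an NRF1 word, and Uqcrfs1 (chr13:30545317-30545566, − strand) a cAMP response element.
Hspe1: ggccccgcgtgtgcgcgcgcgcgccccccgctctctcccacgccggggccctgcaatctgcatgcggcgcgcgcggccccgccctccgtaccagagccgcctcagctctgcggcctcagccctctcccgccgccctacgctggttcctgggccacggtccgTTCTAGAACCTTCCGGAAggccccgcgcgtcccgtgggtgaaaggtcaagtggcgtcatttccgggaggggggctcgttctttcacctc
Atp5c1: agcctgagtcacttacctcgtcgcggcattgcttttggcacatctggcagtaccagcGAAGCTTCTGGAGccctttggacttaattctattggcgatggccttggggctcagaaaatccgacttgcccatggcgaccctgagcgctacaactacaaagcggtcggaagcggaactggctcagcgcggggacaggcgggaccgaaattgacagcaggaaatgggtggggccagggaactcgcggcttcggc
Atp5b: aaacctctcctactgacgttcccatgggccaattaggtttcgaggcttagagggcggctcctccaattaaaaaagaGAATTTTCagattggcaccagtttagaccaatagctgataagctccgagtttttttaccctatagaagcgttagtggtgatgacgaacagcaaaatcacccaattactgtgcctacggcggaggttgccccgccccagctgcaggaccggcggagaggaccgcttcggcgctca
Sdhb: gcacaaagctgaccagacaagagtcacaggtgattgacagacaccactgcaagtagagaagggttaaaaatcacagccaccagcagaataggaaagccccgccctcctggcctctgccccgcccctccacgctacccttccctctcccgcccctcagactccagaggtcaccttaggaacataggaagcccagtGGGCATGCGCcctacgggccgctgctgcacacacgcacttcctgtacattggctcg
Cycs: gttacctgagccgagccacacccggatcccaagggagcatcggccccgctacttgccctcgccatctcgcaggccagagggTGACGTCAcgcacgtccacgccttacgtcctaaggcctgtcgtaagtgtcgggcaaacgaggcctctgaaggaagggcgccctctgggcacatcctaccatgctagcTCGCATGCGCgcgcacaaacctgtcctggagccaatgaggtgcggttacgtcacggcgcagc
Uqcrfs1: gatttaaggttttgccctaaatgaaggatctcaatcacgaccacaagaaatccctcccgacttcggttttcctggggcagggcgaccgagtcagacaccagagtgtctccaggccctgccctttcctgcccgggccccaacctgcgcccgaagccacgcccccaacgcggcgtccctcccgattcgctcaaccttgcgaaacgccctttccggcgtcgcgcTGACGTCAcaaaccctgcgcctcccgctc
The Hspe1 run holds GAA units in alternating direction without a mismatch, and the last of them overlaps an ETS word. Atp5c1 holds 3 units with 1 mismatch, and Atp5b holds a single inverted pair. No heat shock element was found in the shown windows of Sdhb, Cycs and Uqcrfs1, which says only that these letters are not in them.

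Promoters of 300 bases (250 before and 50 after a start) were in the table for 25 of the 33 genes, with 27 promoters in all. Promoters of Ndufa2, Ndufs1, Sdhc, Uqcrc2, Cyc1, Cox4i1, Cox6c and Atp5a1 were not used here. Both strands were searched. The inverted pair GAANNTTC or TTCNNGAA was in 4 of 27 subunit promoters (14.8%, in Sdha, Cox5a, Atp5b and Atp5c1) and in 13.7% of all 21263 promoters. A run of 3 such units in alternating direction (GAA, TTC, GAA, with 2 bases between neighbours) and at most 1 mismatch was in 1 of 27 (3.7%, Atp5c1, where it overlaps the pair) and in 6.6% of all promoters. The NRF1 word (GCGC and TGCGC with any base between them) with at most 1 mismatch was in 16 of 27 (59.3%) and in 18.8% of all promoters. CCGGAAG, an ETS word, was in 4 of 27 (14.8% against 11.6%), and AAGATGGCG, a YY1 word, in 1 (3.7% against 1.8%). TGACGTCA, the cAMP response element, was searched after the letters had been seen and was in 2 of 27 (7.4% against 2.2%). These shares describe letters and do not show that a factor was present.

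HSF1 peaks near subunit genes were few in the short peak lists and many in the long ones. At room temperature, where the lists held 919 and 1269 peaks, 1 of 33 genes was bound, namely Atp5o, against 2.00% of all other protein-coding genes. In the first WT pair (2287 and 1670 peaks), Ndufb8 and Atp5o were bound, 2 of 33 or 6.1% against 3.13%. At 4 h (123 and 351 peaks) 0 of 33 were bound in both libraries and none in either, against 0.366%. In the second WT pair at 40 min (12644 and 14583 peaks) 19 of 33 were bound, 57.6% against 21.0%. In the TXNIP KO libraries (10399 and 10633 peaks) 10 of 33 were bound, 30.3% against 16.0%. The background counts every gene, active in the tissue or not.

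**Figure D1:**
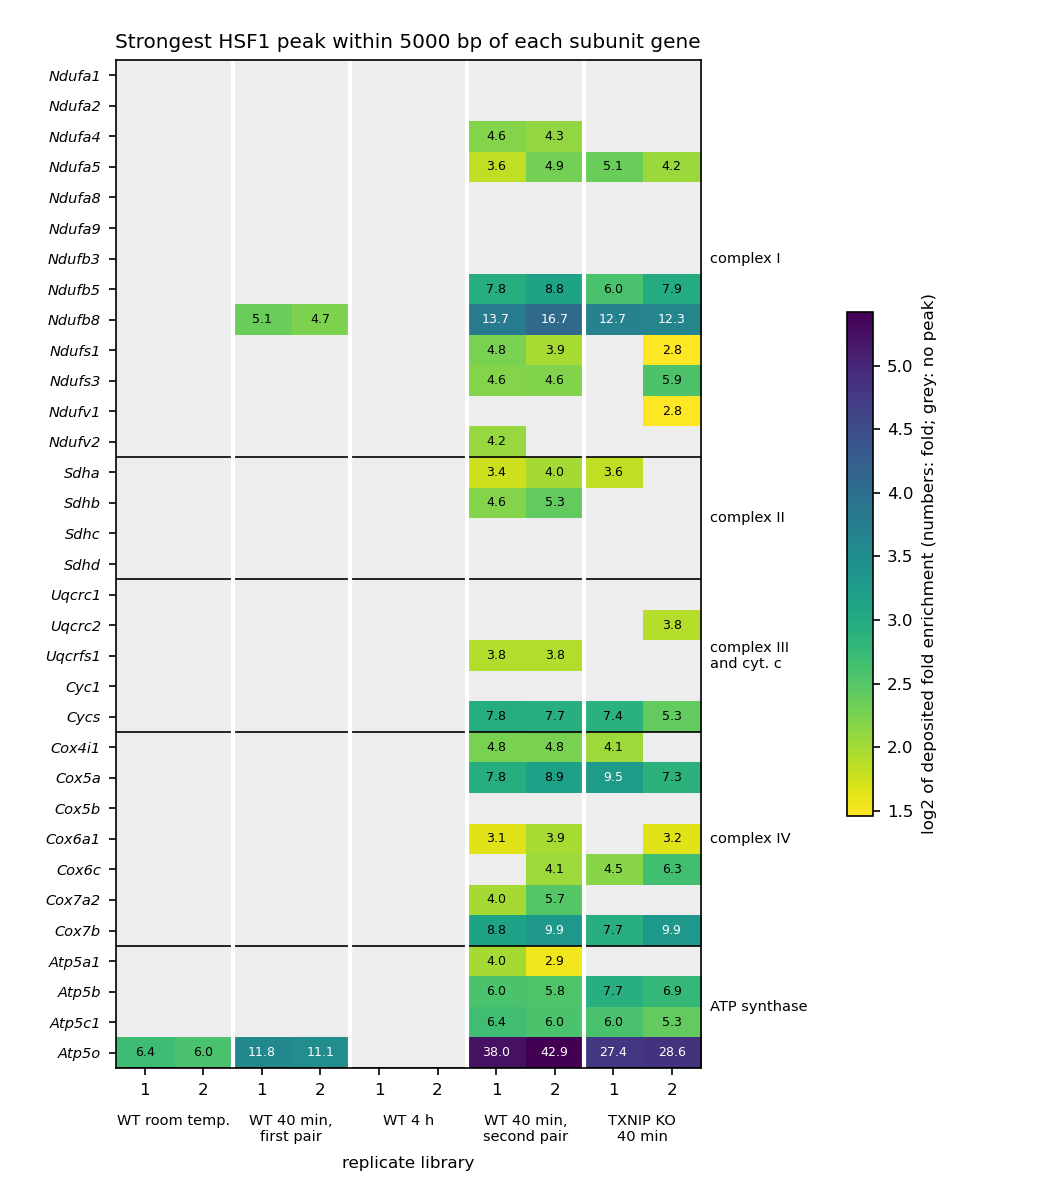
Deposited fold enrichment of the strongest HSF1 peak within 5000 bp of each of the 33 subunit genes (rows, by complex) in the 10 libraries (columns, 2 replicates for each of the 5 groups); colour is log2 of the fold, printed numbers are the fold and grey means no peak. Atp5o is the only row filled at room temperature, no row is filled at 4 h, and most values in the second WT pair and the TXNIP KO lie below 10.

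Every gene can be accounted for. Of the 33, 20 were bound in both replicates of at least 1 group. Another 3 (Ndufv1 and Ndufv2 of complex I and Uqcrc2 of complex III) had a peak in a single library only, and 10 had none in any library: Ndufa1, Ndufa2, Ndufa8, Ndufa9, Ndufb3, Sdhc, Sdhd, Uqcrc1, Cyc1 and Cox5b. Peaks near these genes formed 33 separate regions, of which 23 held a peak of both replicates of a group, beside 19 genes. For Cox6a1, the remaining bound gene, the replicates called different sites. In 16 of the 23 regions the nearest gene end was that of the subunit gene, and in 7 it was another gene's. Counting only summits nearest to the subunit gene, 1 gene was bound at room temperature (1.50% of other genes by the same rule), 1 in the first WT pair (2.42%), 0 at 4 h (0.275%), 13 in the second WT pair (16.6%) and 7 in the KO (12.4%).

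The ATP synthase held the strongest region. Atp5o encodes the stalk subunit that joins the F1 head to the stator. Its region lay upstream of the gene, with a summit at chromosome 16, position 91936574 in second pair replicate 2, which is 4944 bp from the start and just inside the window. The summits of the 8 libraries that called it were 4925 to 4961 bp from the gene, and no other protein-coding gene had an end nearer. At room temperature the folds at Atp5o were 6.44 and 6.05. The first WT pair had 11.8 and 11.1, the second pair 38.0 and 42.9, and the TXNIP KO 27.4 and 28.6, with no peak at 4 h. The replicates of a pair lay close together, and the values of the 4 groups did not overlap. Hspe1 was separated in the same order of groups. Its pairs were 194 and 193 without cold, 400 and 328 (first WT), 1296 and 1210 (second WT), and 1148 and 1109 (KO). Groups did overlap at Sco2, an assembly factor gene described below. How many of all regions separate in this way was not counted, so the separation is not shown to be particular to Atp5o. Fold is not comparable between these lists, since depth and the input behind each are unknown. By rank, with 1 for the strongest peak of a list, the Atp5o region stood at 557 and 751 without cold. Its ranks were 576 and 504 in the first 40 min libraries, 682 and 652 in the second ones and 672 and 599 in the TXNIP KO. Its rank thus stayed between 504 and 751 in lists of 919 to 14583 peaks, and both 4 h lists end before rank 504. A rank need not carry over from one list to another, and why no peak was called at 4 h was not tested. Past the other end of the gene and outside the window, a second site 7218 to 7276 bp from Atp5o and nearest to Itsn1, an endocytic scaffold gene, was called in the 4 libraries of the second pair and the KO, with folds of 11.8, 15.1, 14.7 and 14.0. The gene nearest to the window from outside was Cyc1 of complex III, with 1 peak at 5226 bp in second pair replicate 2, of fold 3.26 and nearer to Maf1.

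At its own start Atp5o had only weak calls, with folds of 4.63 in second pair replicate 2 and 3.18 in KO replicate 1 and none in the other libraries. Atp5b encodes the catalytic beta subunit. Its region upstream of the start had folds of 5.97 and 5.83 in the second WT pair and 7.68 and 6.91 in the KO, with summits 333 to 441 bp before the start, outside the printed run. A further region 2684 bp past its other end had folds of 5.57 and 5.83 in the second WT pair and 3.47 and 3.04 in the KO, nearest to Baz2a, a chromatin remodelling gene. Atp5c1 encodes the rotating gamma subunit. Its start had folds of 6.37 and 4.80 in the second WT pair and 6.02 and 5.33 in the KO. The summits there lay 48 bp after the start in second pair replicate 1 and 247 and 286 bp after it in the KO. They were thus outside the printed run, whose marked GAA units begin 193 bp before the start. A second region near Taf3, a gene for a subunit of the general factor TFIID, had 5.38 and 6.0 and then 2.82 and 3.95. Atp5a1, the alpha subunit gene on chromosome 18, had weak calls of 3.98 and 2.92 in the second WT pair only, at a site nearer to Haus1, a spindle gene.

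Complex I was bound at 6 of 13 genes in the second WT pair and at 3 in the KO, against 21.0% and 16.0% of all other protein-coding genes. Ndufb8, a membrane arm subunit, had the most often called region of these, in 6 libraries. It lay 3580 bp past the end of Ndufb8 and 857 bp from Sec31b, a gene for a coat protein of ER vesicles, at chromosome 19, position 44544991 in second pair replicate 2. In the first WT pair its folds were 5.07 and 4.73, followed by 13.7 and 16.7 in the second WT pair and 12.7 and 12.3 in the KO, and its ranks were 1731, 1467, 2094, 1800, 1601 and 1591 in the same order. The room temperature and 4 h lists, of at most 1269 peaks, end before those ranks. Whether the length of the lists accounts for the missing calls was not tested. Ndufb5, another membrane arm subunit, had a region 1209 bp inside the gene, with folds of 7.76 and 8.75 in the second WT pair and 6.02 and 7.91 in the KO. Ndufa5, in the peripheral arm, had one 2508 bp inside the gene, with 3.57 and 4.86 and then 5.11 and 4.17. At the start of Ndufa5 itself the second pair had folds of 3.19 and 2.92, among the weakest peaks of those lists.

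The remaining complex I calls lay mostly at gene ends. Ndufa4, now counted with complex IV in many schemes, had folds of 4.58 and 4.29 in the second WT pair, between its start and Phf14. Ndufs1, the largest subunit and a carrier of iron-sulfur clusters, had 4.78 and 3.94 in the second WT pair and 2.77 in KO replicate 2, called as 1 region. The summits of the second WT pair lay outside the gene and nearer to Eef1b2, a translation factor gene, and that of the KO lay 96 bp inside Ndufs1. Ndufs3, in the arm that passes electrons to ubiquinone, had 4.58 and 4.63 at its start in the second WT pair. A separate site 1090 bp inside Ndufs3 had 3.37 in second pair replicate 2 and 5.93 in KO replicate 2. Ndufv2, which carries an iron-sulfur cluster near the NADH site, had 4.18 and, at its other end, 3.19 in second pair replicate 1 alone, and Ndufv1, which holds the NADH site, had 2.75 in KO replicate 2 alone.

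Complex II was bound at 2 of 4 genes in the second WT pair and 0 in the KO, against 21.0% and 16.0% of all other protein-coding genes. A difference between the groups over so few genes was not tested. Sdhb, the iron-sulfur subunit, had folds of 4.58 and 5.32, with summits 64 and 81 bp before the start, inside the printed run and close to its NRF1 word. Sdha, the flavoprotein that oxidises succinate, had 3.38 and 3.99 near its start in the second WT pair. In KO replicate 1 its only peak lay 4830 bp away and 99 bp from Pdcd6, a calcium-binding protein gene. Sdhc and Sdhd, the membrane anchors, had none.

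Complex III and cytochrome c were bound at 2 of 5 genes in the second WT pair and at 1 in the KO, against the same 21.0% and 16.0% of other genes. Cycs encodes cytochrome c, the carrier between complexes III and IV and a trigger of apoptosis when released. Its start region had folds of 7.81 and 7.70 in the second WT pair and 7.39 and 5.32 in the KO. The summits of the second pair and KO replicate 1 lay 186 to 266 bp after the start, and that of KO replicate 2 lay 7 bp before it. Within 1000 bp of a subunit gene end, these were the highest folds of the second pair, while Atp5b had the highest in the KO. Uqcrfs1, the Rieske iron-sulfur protein, had 3.78 and 3.77 at its start in the second WT pair alone. Uqcrc2, a core protein, had 3.75 in KO replicate 2, and Uqcrc1 and Cyc1 had none.

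Complex IV was bound at 5 of 7 genes in the second WT pair and at 3 in the KO, against 21.0% and 16.0% of other genes. Within 1000 bp of a gene end, 0 of 7 were bound in the second WT pair and 1 (Cox6c) in the KO, against 13.6% and 9.68%. However, the regions of Cox5a and Cox7a2 named below lay at an annotated start inside the gene span. Cox5a, a matrix-side subunit, had its stronger region 4120 bp past its end and 138 bp from Fam219b, with folds of 7.76 and 8.92 in the second WT pair and 9.54 and 7.31 in the KO. A weaker one, 208 bp from the annotated start of Cox5a, had 4.83 and 3.86 in the second WT pair and 4.40 in KO replicate 1. Cox7b, a small membrane subunit, had a region 4855 bp away and 81 bp from Atp7a, the copper transporter gene. Its folds were 8.76 and 9.95 in the second WT pair and 7.68 and 9.88 in the KO. Cox4i1, which binds the regulatory nucleotides of the complex, had 4.78 and 4.80 inside the gene in the second WT pair and 4.12 in KO replicate 1. A further peak 17 bp from an end of Cox4i1 was called in second pair replicate 2 alone, with a fold of 4.36.

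The other complex IV genes had weaker calls. Cox6c had 4.49 and 6.32 at one end in the KO and 4.12 in second pair replicate 2 alone. Cox7a2 had 3.98 and 5.66 in the second WT pair, at its annotated start, which lies inside the gene span. Cox6a1 had 3.10 at its start in second pair replicate 1, and 3.94 and 3.16 in second pair replicate 2 and KO replicate 2 at a site next to Gatc, a mitochondrial translation gene. Cox5b had none.

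**Figure D2:**
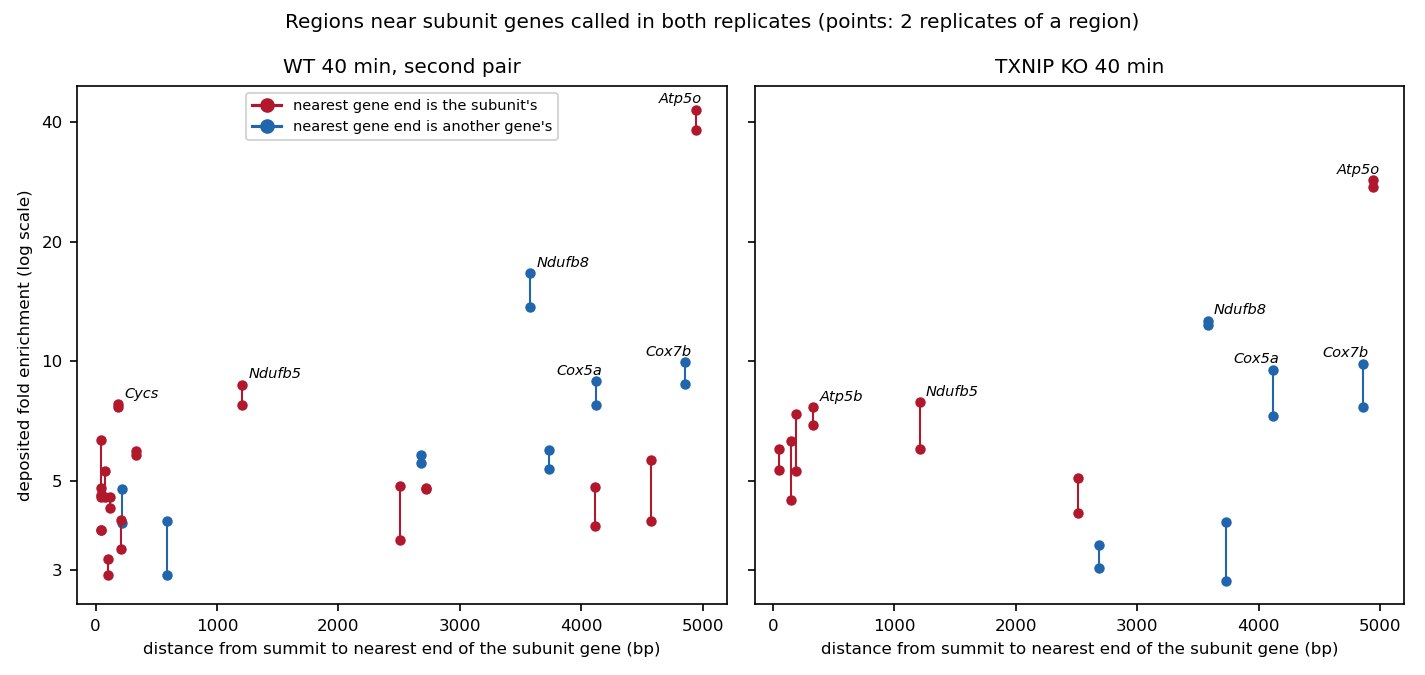
Each joined pair of points is a region called in both replicates of the second WT pair (left) or the TXNIP KO (right); x is the distance from its strongest summit to the nearest end of the subunit gene in bp and y the deposited fold of each replicate on a log scale. Regions within 1000 bp stay at or below 7.81, and the higher values, at Ndufb5, Atp5o, Ndufb8, Cox5a and Cox7b, lie beyond it, the last 3 nearer to another gene.

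Peaks at the ends of the subunit genes were counted separately. With the window narrowed to 1000 bp, 0 of 33 genes were bound without cold (background 1.19%), in the first WT pair (1.69%) and at 4 h (0.265%). In the second pair 11 of 33 were bound (33.3% against 13.6%) and in the KO 4 (12.1% against 9.68%). In second pair replicate 1, 13 genes had such a peak, with a median fold of 4.58 and a highest fold of 7.81, and the median place was at 66.6% of the list counted from the strongest. For other genes with a peak in the same window the median fold was 4.63 and the median place 63.0%. In replicate 2 the values were 4.29 and 66.4% over 15 subunit genes against 4.46 and 61.4%. In the KO they were 6.02 and 50.5% over 5 subunit genes against 5.19 and 59.5% in replicate 1, and 5.32 and 54.3% over 7 against 4.74 and 62.1% in replicate 2. The medians cover only genes with a peak, and a few genes set them in the KO. With the 5000 bp window the median places in the second pair were 64.6% and 49.3%, against 54.0% and 53.1% for other genes with a peak. In the KO, that window gave 44.2% and 46.8% against 50.4% and 51.3%. The 9 chaperone genes used to check the ChIP (Hspe1, Hspd1, Hspa8, Hspa1a, Hspa1b, Dnajb1, Hsph1, Hsp90ab1 and Hsp90aa1) were bound in every group. In the second pair and the KO each stood within the strongest 0.4% of its list, with folds of at least 181.94. At room temperature and in the first WT pair each stood within the strongest 5.0%. They stood lower at 4 h, where the lowest, Dnajb1, was at 74.8% of the list in replicate 1 and 20.2% in replicate 2, with folds of 5.97 and 11.94. Reads of Hspa1a and Hspa1b, a pair of near-identical genes, cannot be assigned to either with certainty.

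**Figure D3:**
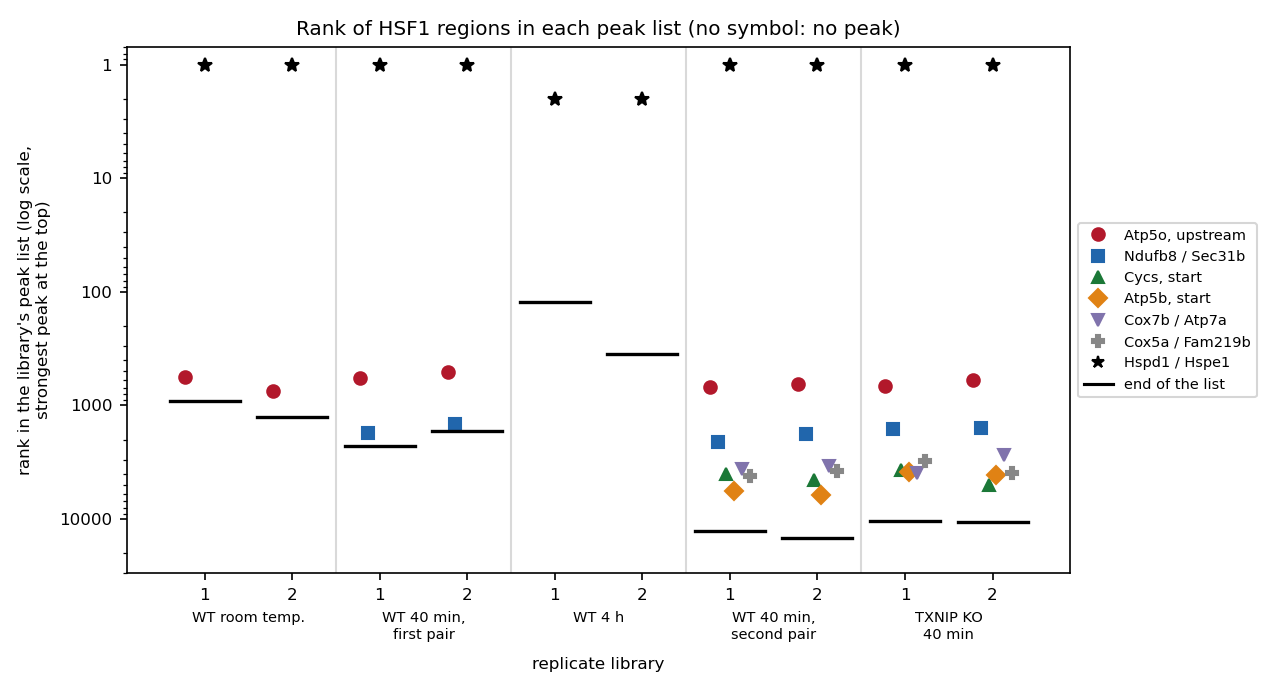
Rank of 6 regions near subunit genes and of the Hspd1/Hspe1 region in each of the 10 peak lists (y, log scale, strongest peak at the top; x, replicate libraries by group; black bars, the last rank of each list). The Atp5o region keeps ranks of 504 to 751 wherever it is called, and the regions at Cycs, Atp5b, Cox7b and Cox5a stand beyond the end of every short list.

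Few subunit genes stood high enough in the long lists to fall within the length of the short ones. Apart from Atp5o and Ndufb8, the best-placed subunit gene stood at rank 3663 (Cox7b) and 3381 (Cox7b) in the second WT pair and at 3074 (Cox5a) and 2728 (Cox7b) in the KO. The longest of the other lists ends at 2287. With the 919 strongest peaks of each library, Atp5o alone was bound in each of the 4 groups with lists of that length, against 1.76%, 1.79%, 1.89% and 2.00% of other genes. With the 123 strongest, 0 of 33 were bound in any of the 5 groups, against 0.435% of other genes at room temperature, 0.407% in the first pair, 0.316% at 4 h, 0.430% in the second WT pair and 0.448% in the KO.

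Changes between groups were counted next. Between room temperature and the first WT pair, Ndufb8 was gained and none was lost, while 0.627% of all other genes were gained and 0.00915% lost. From room temperature to 4 h, Atp5o, the single bound gene, was lost, and of 436 other bound genes 64.7% were lost (1.29% of all other genes, with 0.00% gained). From the first WT pair to 4 h, Ndufb8 and Atp5o were lost (75.7% of 684 other bound genes, 2.37% of all others, with 0.00458% gained). With the 919 strongest peaks of each library, 0 subunit genes were gained or lost between room temperature and the first WT pair, against 0.114% and 0.133% of other genes. Lists cut to the 123 peaks of the shortest 4 h list cannot show a loss, since 0 subunit genes were among them in any group. Among other genes in those lists, 29.5% of 95 bound at room temperature were lost at 4 h (0.128% of all other genes, with 0.0366% gained), and 23.6% of 89 bound in the first WT pair (0.0961%, with 0.0412% gained). Between the first and the second WT pair, which carry the same label, 17 subunit genes were gained and 0 lost, with 16.1% of all other genes gained and 0.0137% lost. In lists of equal length (1670 peaks) 0 were gained or lost, against 0.142% and 0.0961% of other genes. An exact two-sided permutation of 2 against 2 libraries reaches at best p = 0.33, so no test was run, and cold and the length of a list cannot be told apart in the full lists.

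The TXNIP KO libraries were set against the second WT pair, whose lists are of similar length. Of 19 genes bound in the second WT pair, 9 were bound in both KO libraries (Ndufa5, Ndufb5, Ndufb8, Cycs, Cox5a, Cox7b, Atp5b, Atp5c1 and Atp5o). Another 5 were in neither: Ndufa4, Sdhb, Uqcrfs1, Cox7a2 and Atp5a1. Of 4582 other genes bound in the second WT pair, 69.8% were bound in both KO libraries and 12.7% in neither (2.65% of all other genes). No subunit gene was gained, against 0.302% of other genes. With the 10399 strongest peaks of each library, 13 were bound in the second WT pair and 10 in the KO, against 15.4% and 15.8% of other genes. In those lists 3 were lost (Ndufa4, Sdhb and Cox7a2), against 5.2% of 3368 other bound genes (0.796% of all others), and 0 were gained, against 1.11%. In the full lists of the second WT pair, the 5 lost genes had folds of 2.92 to 5.66. Without KO replicate 2, 8 genes were lost, 2 were gained without KO replicate 1, and 1 was gained without second WT replicate 2. Against the first WT pair, 8 were gained and 0 lost, against 11.1% and 0.0137% of other genes. The labels do not say which WT pair was prepared with the knockout.

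The rest of the pathway was read from lists of the remaining subunits and assembly factors, with cytosolic ribosomal proteins and the proteasome as other gene families that most cells express. In the second pair 22 of 50 remaining subunits (44.0%), 15 of 48 assembly factors (31.2%), 23 of 75 ribosomal protein genes (30.7%) and 6 of 31 proteasome genes (19.4%) were bound. In the KO the counts were 16 (32.0%), 12 (25.0%), 22 (29.3%) and 3 (9.7%). Of all genes outside the subunit list, 21.0% were bound in the second pair and 16.0% in the KO, and within 1000 bp 13.6% and 9.68%. Within 1000 bp, the 33 subunit genes had 33.3% in the second WT pair and 12.1% in the KO, against 24.0% and 18.0% for the remaining subunits, 25.3% and 21.3% for ribosomal proteins and 16.1% and 3.2% for the proteasome. The order of the families thus differed between the second pair and the KO, and no difference between families was tested. None of these families had a gene bound at 4 h, when 0.366% of the genes outside the subunit list were bound.

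**Figure D4:**
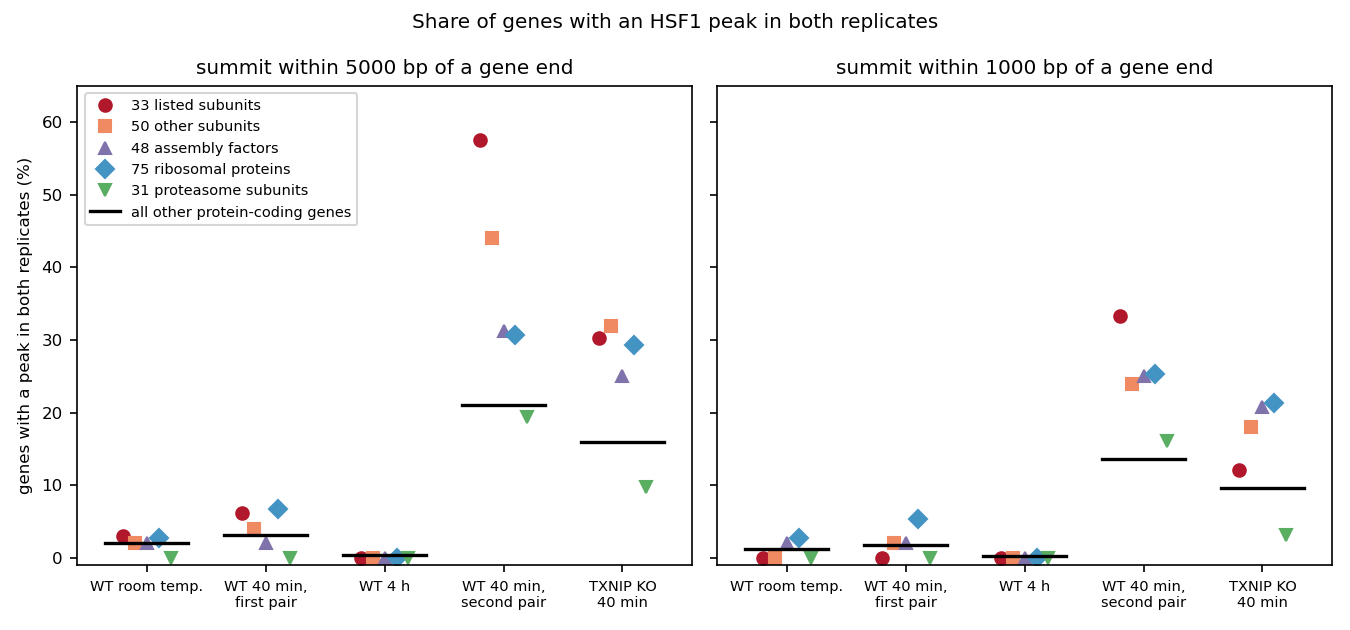
Share of genes (y, in %) with a peak in both replicates of each of the 5 groups (x), for the 33 listed subunits and 4 other gene lists (symbols) and for all other protein-coding genes (black bars), with a window of 5000 bp (left) and 1000 bp (right). The listed subunits stand highest in the second WT pair, at 57.6% and 33.3%, and below the ribosomal proteins within 1000 bp in the KO, at 12.1% against 21.3%.

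Ndufa6 and Sco2, from the remaining subunits and the assembly factors, were bound in short lists. Ndufa6, a complex I subunit of the LYR family, had a peak 311 to 452 bp from its end in 7 libraries. At room temperature it was called in replicate 1 alone, at 3.74. Its folds were 7.97 and 6.12 in the first WT pair, 35.8 and 38.6 in the second WT pair and 27.3 and 21.9 in the KO. Sco2, which delivers copper to complex IV, had one 6 to 54 bp from an end of the gene in 8 libraries. Its folds were 7.15 and 6.44 without cold, 9.42 and 6.68 in the first pair, 20.2 and 25.8 in the second WT pair and 22.6 and 23.1 in the KO. Ndufa6 and Sco2 thus had peaks near the gene itself at these folds, which none of the 33 listed genes had.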

How the data were processed

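The data are ChIP-seq peak lists of HSF1 in 10 libraries, 1 list for each library with no pooling. The submitters' processing notes name MACS2 2.2.7.1, a peak caller, BWA 0.7.17, Trim Galore 0.6.0, deepTools 3.4.3 and SAMtools, and the build GRCm38.p6 (mm10). Which input each list used, filters and duplicate handling were not given in the sources used here. For every peak the deposited files hold a fold enrichment, a linear ratio of summit signal to local background, the −log10 of its p-value and q-value (smallest −log10 q 1.30), a summit position and an integer score, which was not used. Without read counts in them, the depth of a library is unknown. Folds are the authors' values and, like ranks, serve only within a list.

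Peaks on chromosomes 1 to 19, X and Y were kept, summits written 1-based, and ranks taken by −log10 p. Genes and promoters came from RefSeq tables of GRCm38.p6. Starts came from the promoter table, where a gene has an entry. Peaks near a subunit gene that shared 1 bp or more were joined to regions, whose summit is that of the best −log10 q. "Gained" means bound in both libraries of the later group and in neither of the earlier, and "lost" the reverse. The 33 genes and all lists were chosen with earlier results of these data known, so no set of genes was tested and no p-value is given. Values are given in every library for genes bound in both replicates of a group, and for others by counts; genes outside the list are named where nearer to a summit, as the ChIP check, or where bound in a short list. Itsn1 and Maf1, and the genes in the last section, were named after their values were seen. Some genes of these lists are not reported here. Assignment of summits to genes was tested on simulated data and checked against bedtools. Alternatives were windows of 1000 and 10000 bp, −log10 q of at least 5, lists of equal length, the start only, any base of a peak, nearest gene only, 50% overlap of replicates, ordering by fold, no mismatch in motifs, and each library left out. Scripts ran on Python 3.11.15 with pandas 2.3.3 and NumPy 2.4.6.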

Additional observations from a re-analysis of the deposited data

How the results depend on the processing

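The order of the 5 groups by number of bound subunit genes was the same with windows of 1000 and 10000 bp apart from ties. Within 1000 bp, the KO had 4, the second pair 11, the first WT pair 0 and room temperature 0. With lists as long as the shortest outside 4 h, they were 1 in the first WT pair, 1 in the second WT pair and 1 in the KO, and with the shortest of all lists they were 0 in each group. In the first WT pair the count was 1 with −log10 q of at least 5, 1 with the nearest gene only and 1 with the start only, and the start only gave 6 in the KO, with 25 of 33 genes having a start. Leaving out a library gave 20 in the second WT pair, 12 to 15 in the KO, 0 at 4 h, 2 in the first WT pair and 1 without cold.

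Genes gained between room temperature and the first WT pair numbered 0 within 1000 bp, 0 with −log10 q of at least 5 and 0 in equal lists. Those lost from room temperature to 4 h were 0 within 1000 bp and 0 in equal lists, which hold no subunit gene at that length. From the first WT pair to 4 h, 0 were lost within 1000 bp, 1 with −log10 q of at least 5 and 0 in equal lists. Between the second pair and the KO, 3 were lost in equal lists and 5 to 8 with a library left out, 0 to 2 were gained with a library left out, and with the first WT pair as control 8 were gained and 0 lost. From the first to the second WT pair, 11 were gained within 1000 bp, 0 in equal lists and 17 to 18 with a library left out. Without a mismatch, 0 of 27 subunit promoters held the triplet of GAA units (0.5% of all) and 9 held the NRF1 word (33.3% against 6.4%). Requiring 50% overlap of replicate peaks and ordering peaks by fold changed no count by over 1.5 times and no median place by 10 points. No paired analysis was possible because each result is a count of genes from 2 peak lists a group, with no fitted test. The unknown depth limits what a missing peak means, since a site below the end of a short list cannot be told from an unbound one.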

Other observations

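Genes that feed or regulate the chain were described in the same way. Of 17 pyruvate dehydrogenase and citric acid cycle genes, 6 were bound in the second WT pair (35.3%) and 5 in the TXNIP KO (29.4%), against 21.0% and 16.0% of the genes outside the subunit list. In the other groups 0 were bound, against 2.00% of those genes at room temperature, 3.13% in the first WT pair and 0.366% at 4 h. The genes named here were chosen after their values were seen. The highest folds were at Dlst, a subunit of the oxoglutarate dehydrogenase, with 11.4 and 7.38 in the second WT libraries and 10.2 and 6.12 in the KO, at a site nearer to Prox2.

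Of 19 regulators of respiratory gene transcription, 7 were bound in the second WT pair (36.8%) and 8 in the KO (42.1%), against 21.0% and 16.0% of the genes outside the subunit list. In the other groups 0 were bound, against 2.00% of those genes at room temperature, 3.13% in the first WT pair and 0.366% at 4 h. Ppargc1b, a coactivator of mitochondrial genes, had the strongest region, 1665 bp from its end in both second pair libraries, with folds of 15.9 and 19.96 there and 18.1 and 16.4 in the KO. Creb1, the cAMP response factor, had 6.57 and 7.20, then 5.99 and 5.32, and Yy1 had 5.38 and 4.80, then 6.85 and 5.53. The site counted for Gabpa, a GABP subunit, was in 3 of these 4 libraries nearer to Atp5j, an ATP synthase subunit gene that shares its upstream side.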
